A study of Mus musculus with 6 samples.

Results

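The Bcl2 family decides whether the outer mitochondrial membrane is opened, the step that commits a cell to apoptosis, and 10 of its genes were examined in cells of the embryonic mouse cortex with reduced Ybx1. They were chosen by gene symbol from the 17920 genes of the deposited table and are the anti-apoptotic genes Bcl2, Bcl2l1, Bcl2l2 and Mcl1, the effector genes Bak1 and Bok, and the BH3-only genes Bid, Bcl2l11, Bbc3 and Pmaip1. All 10 passed the filter on low counts, as did 13669 genes in the whole series.

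The study asked what Ybx1, an RNA-binding protein that reads 5-methylcytosine in mRNA, does in cortical development. The libraries used here are from its knockdown experiment, and it also sequenced RNA of conditional knockout cortex. In conditional knockout cortex the paper stained for apoptotic cells and found no increase. That staining was of tissue and not of the cultures used here. The labels name brain of genotype WT or KD at stage E13.5, whereas the methods describe cells cultured from the cortex of that stage and infected with a pLKO.1-Puro lentivirus that carried a short hairpin RNA against Ybx1 (KD, 3 libraries) or a control hairpin (WT, 3 libraries). Both groups were treated with puromycin, to which the virus confers resistance, so the WT libraries also come from infected and selected cultures and not from untouched tissue. Which Ybx1 hairpin the libraries carried is not stated for these samples. The methods say that the expression profiles came from 3 independent replicate experiments, without saying what was repeated in each. The p-values therefore measure the spread between these libraries only.

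In healthy cells the anti-apoptotic proteins hold the effector proteins in check. BH3-only proteins relay damage, loss of growth factors or other stress by binding the anti-apoptotic proteins, and some also activate the effectors directly. Activated Bak or Bax forms pores in the mitochondrial outer membrane, cytochrome c is released, and caspases are switched on. In the developing cortex this pathway removes progenitors and young neurons, and loss of effector genes is known to leave excess cells. The proteins share short homology regions, of which the BH3 region is the one common to the BH3-only proteins and the rest of the family. The sequences are shown as examples of this region. In GENCODE vM21 transcripts (GRCm38), 9 of the members held exactly 1 match to its core, and Pmaip1 was not searched. The core was searched as 6 codons for leucine or methionine, 3 residues of any kind, glycine or alanine, and aspartate. How often other genes match was not counted, so a match does not by itself show family membership. Each line gives 30 bases of coding sequence, 5′ to 3′ on the strand of the gene, with the core in capitals.
Bcl2 (chr1:106712578-106712607, minus strand, exon 1 of 2): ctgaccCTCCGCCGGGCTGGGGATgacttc
Bcl2l1 (chr2:152829700-152829729, minus strand, exon 2 of 3): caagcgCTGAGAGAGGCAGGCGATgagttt
Bcl2l2 (chr14:54884511-54884540, plus strand, exon 3 of 4): caagccATGCGGGCTGCTGGAGACgagttt
Mcl1 (chr3:95659430-95659459, plus strand, exon 1 of 3): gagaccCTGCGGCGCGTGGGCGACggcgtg
Bak1 (chr17:27022534-27022563, minus strand, exon 4 of 6): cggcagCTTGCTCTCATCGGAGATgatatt
Bok (chr1:93686651-93689167, plus strand, from exon 2 into exon 3 of 5): acagtgCTGCTGCGCTTGGGAGATgagctg
Bid (chr6:120897292-120897321, minus strand, exon 4 of 6): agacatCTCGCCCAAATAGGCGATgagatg
Bcl2l11 (chr2:128147144-128147173, plus strand, exon 3 of 4): caggagCTGCGGCGGATCGGAGACgagttc
Bbc3 (chr7:16313767-16313796, plus strand, exon 3 of 4): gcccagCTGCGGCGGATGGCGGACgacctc
The stretch of Bok is divided by an intron, and the others lie in a single exon. The core bases of Bbc3 and Bcl2l11 were identical at 15 of 18 positions, the most alike of any pair, and those of Bid and Bcl2l2 at 5 of 18, the least alike.

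Each library held from 16294635 to 16497505 estimated counts, a nearly equal depth. Normalised counts are given per 1000000 counts of a TMM-scaled library (CPM) and fold changes as log2 of KD over WT. The adjusted p is that of the quasi-likelihood test of edgeR, by Benjamini and Hochberg over all genes tested, with a gene called at an adjusted p under 0.05. The targeted gene Ybx1 averaged 629 ± 21.0 CPM in WT and 116 ± 36.8 CPM in KD (SD, n = 3 each; log2 fold change -2.43, adjusted p = 0.000182). KD replicate 3 kept the most Ybx1, at 159 CPM against 98.3 and 92.2 CPM in KD replicates 1 and 2. Libraries with the same number deviated together, so a fit with the number as a block is given beside a result where it changes the call. Both libraries numbered 2 stood apart from the others in Y-linked transcripts (at most 36 estimated counts summed over 4 genes, against at least 1218 elsewhere), and results were also computed without them. The cell types in the cultures were examined with marker genes. All 9 radial glia and all 8 neuron markers passed the filter. So did all 4 oligodendrocyte lineage, all 3 astrocyte and 3 of 4 mural markers. Only 1 of 7 microglia, 2 of 6 endothelial and 1 of 5 erythroid markers passed, and none of these was called. Summed levels of these last lists were at most 8.01, 1.56 and 15.5 TPM (TPM counts transcripts and so corrects for their length).

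Knockdown lowered 3 of the 10 members and raised 0. Bbc3 fell to 59.4% of its WT level, Bid to 75.3% and Bak1 to 80.7%. All 3 encode proteins that promote cell death, but so do Bok, Bcl2l11 and Pmaip1, which were not called. Of these, Bcl2l11 had a fitted change upwards (log2 fold change 0.45). None of the 4 anti-apoptotic genes passed the test under edgeR or DESeq2, although 1 higher and 1 lower had an unadjusted p below 0.05. Across all genes tested 11.9% were lower and 12% higher, or 24% in either direction, so 3 of 10 is near the share over the whole table. Testing log2(TPM + 1) with limma shifted the split of all called genes to 2076 higher and 1072 lower, against 1646 and 1631, and left 3 members lower and 0 higher. The median log2 fold change was -0.12 over the members and -0.0013 over all genes tested. At an unadjusted p below 0.05, 2 members were higher, and DESeq2 called 0 higher and 3 lower. With the replicate block 2 members were higher (Bcl2 and Bcl2l11) and 4 lower (Bcl2l2 in addition), against 18.6% and 18.1% of all genes. KD and WT libraries did not overlap in CPM for 6 members, while 41.6% of all genes showed no overlap. Because these are bulk libraries, fewer cells of a type that uses a gene and less RNA of that gene per cell cannot be told apart.

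**Figure D1:**
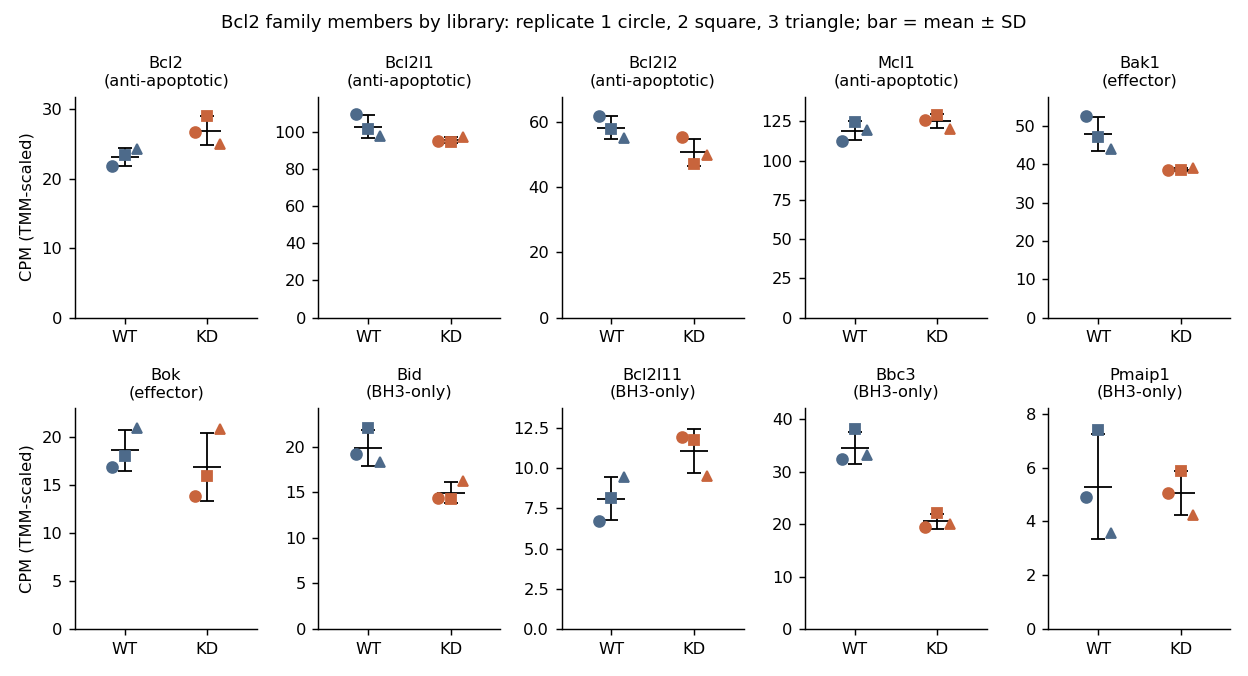
Normalised count of each member in every library (CPM, each axis from 0), with replicate 1 as a circle, 2 as a square and 3 as a triangle, and the mean ± SD per group as bars. The 3 KD libraries of Bbc3 lie between 19.5 and 22.1 CPM and the WT libraries between 32.4 and 38.1 CPM, the widest separation among the members.

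Among the BH3-only genes, Bbc3 (Entrez Gene 170770, chr7:16308398-16318334) encodes Puma, which binds all the main anti-apoptotic proteins and is a textbook target of p53. Bbc3 was at 32.4, 38.1 and 33.3 CPM in WT replicates 1, 2 and 3 and at 19.5, 22.1 and 20.0 CPM in KD replicates 1, 2 and 3. All KD libraries lay well below all WT libraries. The log2 fold change was -0.75 (SE 0.09, 95% interval -0.95 to -0.56, adjusted p = 0.000902). The same-numbered differences in log2 CPM were -0.73, -0.78 and -0.73, so the fall was of like size in every pair, also in the pair whose KD library kept the most Ybx1. Bbc3 was called under all 16 alternative fits, with adjusted p between 1.13e-08 and 0.0346.

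Bid (Entrez Gene 12122, chr6:120893119-120917062) encodes a BH3-only protein that is cut by caspase 8 and so links death receptors to mitochondria. Its WT libraries were at 19.2, 22.0 and 18.3 CPM and its KD libraries at 14.4, 14.2 and 16.2 CPM. The groups did not overlap, and the pair numbered 3 lay closest together. The log2 fold change was -0.41 (SE 0.10, 95% interval -0.64 to -0.18, adjusted p = 0.021). Pairwise differences in log2 CPM were -0.42, -0.63 and -0.17. The call was lost without WT replicate 2 (adjusted p = 0.0795), KD replicate 1 (adjusted p = 0.0601) or KD replicate 2 (adjusted p = 0.0761), within a range of 0.00369 to 0.215 over all edgeR, limma and DESeq2 alternatives. In GENCODE the end of Bid overlaps Bcl2l13 on the other strand by 913 bases, and whether the counting used strand is not given in the sources used here. Bcl2l13 itself differed by 0.09 on the log2 scale (adjusted p = 0.288).

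Bcl2l11 (Entrez Gene 12125, chr2:128126038-128162547) encodes Bim, a BH3-only protein that responds to loss of growth factors and that FoxO factors are known to induce. It was at 6.74, 8.15 and 9.47 CPM in the WT libraries and at 11.96, 11.78 and 9.52 CPM in the KD libraries. Every KD library lay above every WT library, although replicate 3 of both groups was nearly equal. The log2 fold change was 0.45 (SE 0.15, 95% interval 0.11 to 0.79, adjusted p = 0.0601), which did not pass. With the replicate block it was 0.45 and passed (adjusted p = 0.0213), and it also passed without WT replicate 3 (adjusted p = 0.0348) or KD replicate 3 (adjusted p = 0.0469), while the other 13 alternatives gave up to 0.318. The differences within pairs were 0.83, 0.53 and 0.01 on the log2 scale. The pair with the smallest difference is the one whose KD library kept the most Ybx1, and a link between both was not tested. This was not particular to Bcl2l11. The same pair also had the smallest absolute difference for Bcl2, Bcl2l1, Bcl2l2, Mcl1, Bak1, Bok and Bid, but not for Bbc3 or Pmaip1.

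Pmaip1 (Entrez Gene 58801), which encodes Noxa, a BH3-only protein that binds Mcl1 and another textbook target of p53, had few reads. Its WT libraries held 81, 120 and 57 estimated counts and its KD libraries 84, 96 and 70. The groups overlapped throughout. Its log2 fold change was -0.07 (95% interval -0.64 to 0.51, adjusted p = 0.872), an interval that holds both the fitted value of Bid and that of Bcl2l11. Its sign turned in 4 of 16 alternatives. Bbc3 and Pmaip1 are both p53 targets. The p53 gene itself, Trp53, differed by 0.09 on the log2 scale (adjusted p = 0.29). Mdm2, the p53 target that encodes its ubiquitin ligase, differed by 0.10 (adjusted p = 0.191). These are transcript levels, and the activity of p53 and its part in the change of Bbc3 were not tested.

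**Figure D2:**
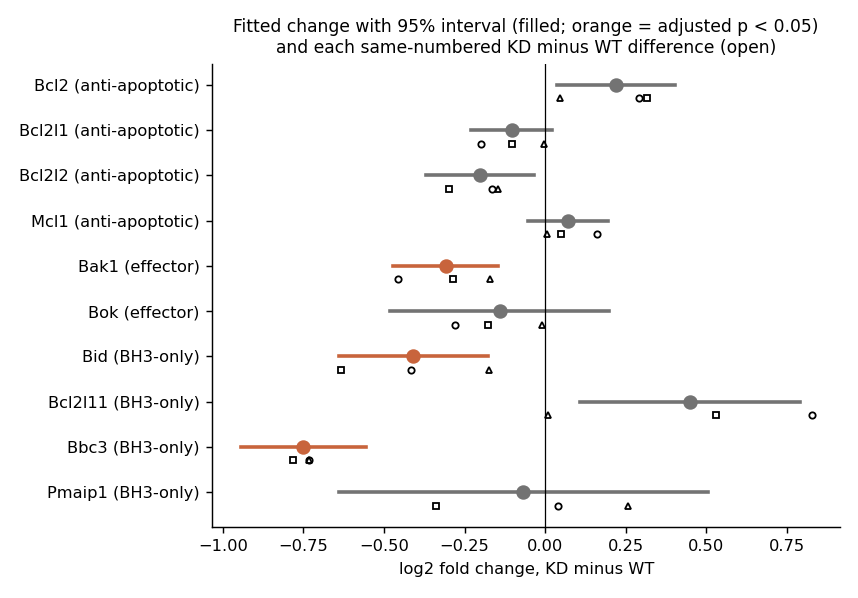
Fitted log2 fold change of KD over WT for each member with its 95% interval, orange where the adjusted p was under 0.05, and below each the differences in log2 CPM between same-numbered libraries as open symbols (circle 1, square 2, triangle 3). Bbc3 is at -0.75 with all 3 pairs close together, while the pairs of Bcl2l11 run from 0.01 to 0.83.

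Of the effectors, Bak1 (Entrez Gene 12018, chr17:27019812-27028627) encodes Bak, a pore-forming protein that resides on mitochondria. Bak1 was at 52.7, 47.0 and 43.9 CPM in WT and at 38.4, 38.6 and 39.0 CPM in KD. The KD libraries were nearly equal and all below the WT libraries, which were more spread. Its log2 fold change was -0.31 (SE 0.07, 95% interval -0.47 to -0.15, adjusted p = 0.0165). Differences within the pairs were -0.46, -0.29 and -0.17 on the log2 scale. Leaving out WT replicate 2 (adjusted p = 0.0516) or KD replicate 2 (adjusted p = 0.0632) ended the call, and the range over all edgeR, limma and DESeq2 alternatives was 0.00254 to 0.157. Bak1 lies within the span of Ggnbp1 on the other strand, a gene with 13 to 21 estimated counts per library against 632 to 868 for Bak1.

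Bok (Entrez Gene 51800), an effector known to act also when Bak and Bax are absent, was at 16.9, 18.1 and 21.0 CPM in WT and at 13.9, 16.0 and 20.9 CPM in KD. The groups overlapped, and the libraries of both groups had the same order by replicate number. It differed by -0.14 on the log2 scale (95% interval -0.48 to 0.20, adjusted p = 0.533). Bax, the remaining effector, is a p53 target that was looked at beside the members. It was at 57.1, 65.4 and 62.5 CPM in WT and at 60.1, 60.3 and 61.0 CPM in KD. Its groups overlapped, with a log2 fold change of -0.03 (95% interval -0.16 to 0.11, adjusted p = 0.781). That interval overlaps the interval of Bak1 (-0.47 to -0.15), and a difference in response between Bax and Bak1 was not tested. Per transcript length Bax was the more abundant, and the ratio of Bax to Bak1 in TPM was 3.22, 4.13 and 4.24 in WT and 4.65, 4.68 and 4.69 in KD.

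Of the anti-apoptotic genes, 0 of 4 passed without the replicate block, and Bcl2 (higher) and Bcl2l2 (lower) passed with it. Mcl1 (Entrez Gene 17210), which encodes a short-lived survival protein needed by cortical progenitors, was at 113, 125 and 120 CPM in WT and at 126, 129 and 120 CPM in KD. Its groups overlapped, with a log2 fold change of 0.07 (95% interval -0.05 to 0.20, adjusted p = 0.376). Bcl2l1 (Entrez Gene 12048), which encodes Bcl-xL, the main survival protein of young neurons, was at 110, 102 and 97.8 CPM in WT and at 95.4, 94.6 and 97.6 CPM in KD. Every KD library was below every WT library, but by a small margin, and the log2 fold change of -0.10 (95% interval -0.23 to 0.02, adjusted p = 0.203) did not pass. Neither gene passed under any of the 16 alternative fits.

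Bcl2 (Entrez Gene 12043, chr1:106538176-106714290), after which the family is named, was at 21.8, 23.4 and 24.2 CPM in WT and at 26.7, 29.1 and 25.0 CPM in KD. All KD libraries were higher than all WT libraries. The log2 fold change was 0.22 (SE 0.08, 95% interval 0.04 to 0.40, adjusted p = 0.0786), which passed only with the replicate block (adjusted p = 0.0337) among 16 alternatives, whose values reached 0.376. An annotated antisense gene, D630008O14Rik, shares 33103 bases of the Bcl2 span, which is mostly intron.

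Bcl2l2 (Entrez Gene 12050, chr14:54883366-54890858) encodes Bcl-w, a survival protein prominent in neurons. It was at 62.0, 57.9 and 55.1 CPM in WT and at 55.3, 47.1 and 49.8 CPM in KD. The groups overlapped between KD replicate 1 and WT replicate 3, but the KD library was lower in every pair. Its log2 fold change was -0.20 (SE 0.07, adjusted p = 0.0783). It passed with the replicate block (log2 fold change -0.20, adjusted p = 0.0146) and without KD replicate 1 (adjusted p = 0.0406), and the range over all 16 alternatives was 0.0146 to 0.377. Its estimated counts were fractional in all 6 libraries, and in GENCODE the read-through gene Gm20521 covers it on the same strand, so its value is less certain than those of the other members. Gm20521 also overlaps Pabpn1, whose counts were fractional in the same 6 libraries and which was higher in KD (142 ± 9.1 against 161 ± 2.4 CPM, log2 fold change 0.18, adjusted p = 0.0466). Of the others only Bcl2l11 had a fractional count, in 1 library.

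Levels can be compared between genes per transcript length. In WT the order by TPM began with Bcl2l1 (90.8 ± 5.4 TPM; SD, n = 3 here and below) and Mcl1 (74.2 ± 3.5 TPM), followed by Bak1 (55.6 ± 4.9 TPM). Bcl2l2 (43.9 ± 2.8 TPM) and Bbc3 (42.9 ± 3.6 TPM) came next and overlapped. Bok (29.3 ± 3.6 TPM) and Bid (24.5 ± 2.1 TPM) overlapped as well. Far below lay Bcl2 (6.65 ± 0.40 TPM), Pmaip1 (4.44 ± 1.59 TPM) and Bcl2l11 (3.55 ± 0.70 TPM), of which the last pair overlapped. The most abundant survival transcripts of these cells were thus those of Bcl2l1 and Mcl1, and the namesake Bcl2 was among the scarcest members.

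In KD the first 4 places were held by the same genes. Bbc3 dropped to 26.5 ± 2.2 TPM, a level that overlapped that of Bok at 27.5 ± 5.4 TPM, whereas in WT it lay above Bok in every library. At the bottom, Bcl2l11 stood above Pmaip1, at 4.99 ± 0.83 against 4.42 ± 0.77 TPM, but their libraries overlapped.

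**Figure D3:**
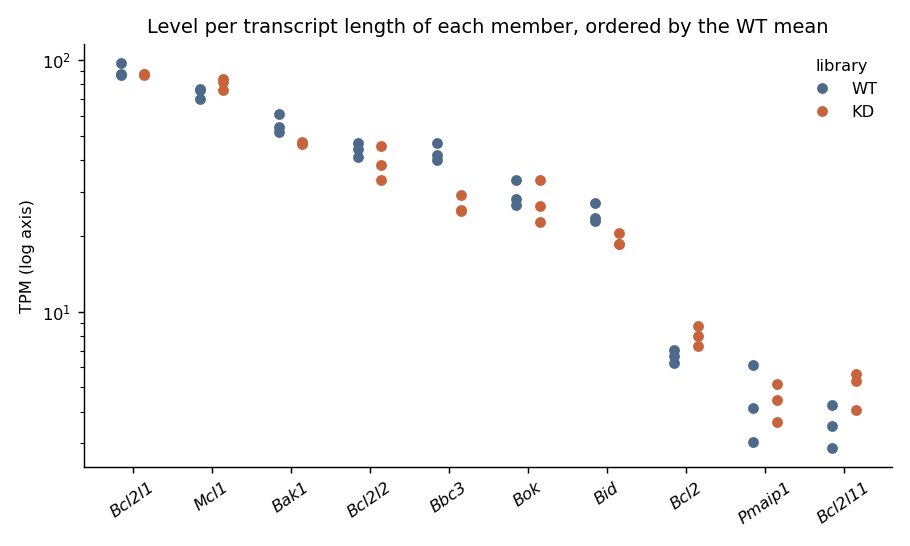
Level of each member per transcript length in every library (TPM, log axis), WT in blue and KD in orange, ordered by the WT mean. Bcl2l1 and Mcl1 lie above 70 TPM in all libraries, and Bcl2, Pmaip1 and Bcl2l11 below 9 TPM.

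Summed by role, the transcripts of the 4 anti-apoptotic genes came to 216 ± 4.0 TPM in WT and 215 ± 7.2 TPM in KD. For the 4 BH3-only genes the sums were 70.6, 83.5 and 72.0 TPM in WT and 53.7, 58.4 and 53.2 TPM in KD. The sum of Bak1 and Bok was 84.9 ± 2.8 TPM in WT and 74.1 ± 5.1 TPM in KD. Survival transcripts thus made up 57.3% ± 1.0 of the members' TPM in WT and 62.5% ± 1.7 in KD. These shares cover the members only, without Bax, Bad, Bmf or Hrk, and depend on that choice. Bax alone was at 213 ± 14.3 TPM in WT and 218 ± 1.8 TPM in KD. The sums by role follow the most abundant members of each role: Bbc3 supplied 56.9% ± 0.9 of BH3-only TPM in WT and 48.0% ± 1.5 in KD. The ratio of Bbc3 to Bcl2l11 in TPM was 13.9, 13.4 and 9.77 in WT and 4.81, 5.15 and 6.16 in KD. No test was made on sums, and transcript levels say nothing of the amounts of protein.

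**Figure D4:**
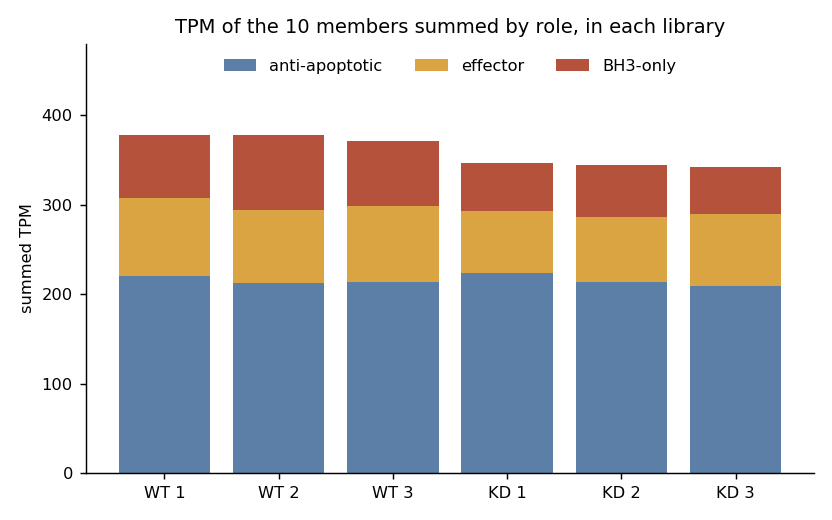
TPM of the 10 members summed by role in each library, stacked from 0. The anti-apoptotic part is of like height in WT and KD (216 and 215 TPM on average), and the BH3-only part is smaller in the 3 KD libraries.

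Promoter windows were examined because Ybx1 takes its name from the Y-box, an inverted CCAAT motif. The paper, however, found the Ybx1 protein mainly in the cytoplasm of cultured progenitors and holds that a role in transcription may be questionable. RefSeq windows from 250 bases before to 50 after a transcription start (GRCm38.p6) were examined for 9 members (not for Pmaip1), 14 windows in all. CCAAT, on either strand (ATTGG on the other), occurred in 3 of the 14 windows, against 37.4% of 32851 windows genome-wide, and only in Bcl2l11 and Bbc3. The motif GTAAACA bound by FoxO factors (TGTTTAC on the other strand) occurred in 2 of the 14 windows, against 3.65% of all windows, and again in Bcl2l11 and Bbc3. The motifs do not overlap each other. The stretches are shown for these genes since they were the members with a match, with the motif in capitals, 5′ to 3′ on the plus strand, which is the strand of both genes.
Bcl2l11 CCAAT, 57 bases before a start (chr2:128125969-128125997): gagcccgcggtgATTGGgcgcgggggcgg
Bcl2l11 CCAAT, 74 bases before another start (chr2:128127489-128127517): actgcgcgcgggCCAATgggggagcactg
Bbc3 CCAAT, 100 bases before a start (chr7:16310319-16310347): caacagccggttATTGGccccgcgcgcgc
Bcl2l11 GTAAACA, 227 bases before a start (chr2:128125799-128125829): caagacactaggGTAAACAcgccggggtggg
Bbc3 GTAAACA, 167 bases before a start (chr7:16310082-16310112): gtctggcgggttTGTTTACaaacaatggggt
The Bbc3 stretches and that of Bcl2l11 at 74 bases lie inside the annotated spans of these genes, before downstream starts. Such a match is a string of letters and does not show binding.

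The other genes of the pathway were taken from 6 lists. Of 54 that were tested 8 rose and 3 fell, where 12% of all genes rose and 11.9% fell, with a median log2 fold change of 0.02. With the replicate block 14 rose and 11 fell, where 18.6% of all genes rose and 18.1% fell. Counts in the single lists that follow are to be read beside these shares. Among the further Bcl2 family genes 1 of 8 was called: Bnip3l, which encodes a mitophagy receptor, rose from 125 ± 5.2 to 149 ± 5.8 CPM (log2 fold change 0.25, SE 0.05, adjusted p = 0.0101), a call that was lost without WT replicate 2 (adjusted p = 0.0504).

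The BH3-only gene Bmf was at 7.71, 5.74 and 4.80 CPM in WT and at 4.93, 4.09 and 2.30 CPM in KD. It was lower in every pair while the groups overlapped, so its log2 fold change of -0.69 did not pass without the block (adjusted p = 0.099) and did with it (adjusted p = 0.00298). Hrk, a BH3-only gene used by neurons, was at 0.18 on the log2 scale (adjusted p = 0.304, and 0.0463 with the block). Bnip3, a relative of Bnip3l that is induced by low oxygen, was at 0.32 (adjusted p = 0.306, and 0.00602 with the block). Bad, which ties the family to growth factor signalling, was at -0.17 (adjusted p = 0.0651) and passed under upper quartile scaling (adjusted p = 0.0473) and on log2(TPM + 1) with limma (adjusted p = 0.0131). Bcl2l12 (0.20, adjusted p = 0.605) and Bcl2l13 did not pass under any alternative. Bik, Bcl2l15 and the Bcl2a1 genes had at most 10 estimated counts in any library and were not tested.

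Of the regulators of the members, 5 of 15 genes rose and 2 fell, or 7 and 3 with the replicate block. Of all genes tested 12% rose and 11.9% fell, or 18.6% and 18.1% with the block. Foxo1, a FoxO transcription factor, rose from 21.6 ± 2.1 to 30.5 ± 1.9 CPM (log2 fold change 0.50, SE 0.09, adjusted p = 0.00503). Fbxw7, whose ubiquitin ligase marks Mcl1 for degradation, rose by 0.36 (SE 0.10, adjusted p = 0.0363). Atf4, the transcription factor of the integrated stress response, fell by 0.32 (SE 0.10, adjusted p = 0.0475), and Mapk8, which encodes a JNK kinase, fell by 0.22 (SE 0.05, adjusted p = 0.0189). The call of Fbxw7 was lost without WT replicate 1 or 2 or KD replicate 2 or 3 (adjusted p up to 0.124), that of Atf4 without WT replicate 1 or 2 or KD replicate 1 or 2 (adjusted p up to 0.149), and that of Mapk8 without WT replicate 2 (adjusted p = 0.0689). On log2(TPM + 1) with limma neither Atf4 (adjusted p = 0.0755) nor Mapk8 (adjusted p = 0.0573) passed, and Atf4 did not with total counts as the only scaling (adjusted p = 0.0553). Foxo1 lost its call only where both libraries numbered 2 were left out (adjusted p = 0.102).

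In the apoptosome and caspase list, 0 of 10 genes passed under edgeR and 0 under DESeq2. Here 2 had an unadjusted p below 0.05, Casp2 at 0.25 (adjusted p = 0.0561) and Parp1 at 0.12 (adjusted p = 0.114), and the block called Casp2 (adjusted p = 0.00721). On the log2 scale Apaf1, the scaffold of the apoptosome, differed by -0.09 (adjusted p = 0.304). Among the inhibitors of apoptosis and their antagonists 1 of 6 genes passed, and 4 with the replicate block, which also called Xiap lower (adjusted p = 0.00649), Diablo higher (adjusted p = 0.0218) and Htra2 lower (adjusted p = 0.0401). The gene called without it was Birc5, which encodes survivin, a protein that also acts in mitosis, at 14.3, 12.2 and 10.2 CPM in WT and 19.8, 16.2 and 15.6 CPM in KD (log2 fold change 0.49, SE 0.14, adjusted p = 0.0367). Its call was lost without WT replicate 2 or 3 or KD replicate 1 or 2 (adjusted p up to 0.113).

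**Figure D5:**
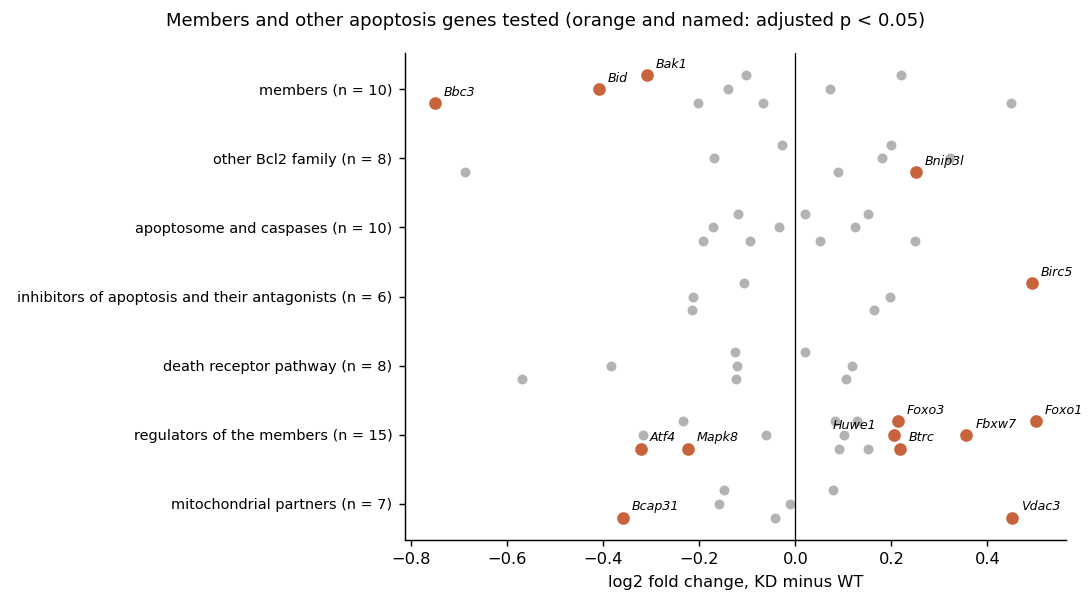
Log2 fold change of KD over WT for the members and for each tested gene of the 6 other lists, with genes at an adjusted p under 0.05 in orange and named. Orange points lie on the left for the members (3 lower, 0 higher) and mostly on the right for the regulators (5 higher, 2 lower). Of all genes tested 12% were higher and 11.9% lower.

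Markers of cell state were compared in the same libraries. Of all genes tested 12% were higher and 11.9% lower, or 18.6% and 18.1% with the replicate block, and the counts below are to be read beside these shares. All 4 intermediate progenitor markers tested were higher in KD, with a summed level of 43.0 to 55.2 TPM in the WT libraries and 97.4 to 122 TPM in the KD libraries. Of the 6 proliferation markers 4 were higher, and 6 with the replicate block, with sums of 269 to 302 TPM in WT and 373 to 466 TPM in KD. Radial glia markers were higher for 2 of 9 genes, and for 5 with the block (3095 to 3472 against 3526 to 3815 TPM). Of 8 neuron markers 1 was higher and 1 lower, or 3 and 1 with the block. Of the 4 oligodendrocyte lineage markers 1 was lower, and 3 with the block (303 to 408 against 260 to 328 TPM), of 3 mural markers tested 1 was higher and 1 lower (6.85 to 8.58 against 7.46 to 9.68 TPM), and 0 of 3 astrocyte markers passed, with 0 at an unadjusted p below 0.05 and 0 called by DESeq2. The part of these cell states in the change of Bbc3, Bid or Bak1 was not tested.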

How the data were processed

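The 6 bulk RNA-seq libraries were grouped and numbered by their sample titles. Controls are named Ctrl in the table, and the Ctrl column of a number was taken as the WT title of that number. The authors purified mRNA, sequenced it on the DNBSEQ platform and deposited an estimated count and a TPM value per gene and library. The submitters' processing notes name HISAT2 2.2.1, Bowtie2 2.4.5 and RSEM 1.3.1 and the builds GRCm38 and mm10, without the role of each. The deposited TPM values sum to 1000000 per library, and 12 columns (FPKM values and group averages) were not used.

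For testing, estimated counts were rounded. The tool was edgeR 4.0.16 under R 4.3.3 (TMM, filterByExpr at its minimum count of 10, quasi-likelihood F-test, Benjamini-Hochberg adjustment over 13669 genes). SE is the absolute log2 fold change over the square root of F, and intervals are 95%. Between-library variation was 7.69% (coefficient of variation), and 4.71% with the replicate block. Alternatives used other scalings and filters, DESeq2 1.42.0, limma 3.58.1 (voom, and trend on TPM with a pseudocount of 1), the block, left-out libraries and stricter thresholds. Scripts were tested on simulated data.

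Replicates of a group differed by 3.90 to 7.49 in chi-square per degree of freedom, above sampling noise, so none was treated as a repeat deposit of another, which does not show separate cultures. Deviations from group means correlated at 0.35, 0.32 and 0.18 for same-numbered libraries and at -0.28 to -0.02 otherwise. The same-numbered values all exceed 0.1, so the numbers pair the libraries, a pairing read from the data, as no label gives its source. Whether the numbers stand for the replicate experiments of the methods is not stated.

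The members and gene lists were chosen with earlier results of these data known. The genes named are all members, Ybx1, the further Bcl2 family genes, and up to 4 called genes per pathway list by size of change; genes overlapping a member, Trp53, Mdm2, Apaf1, Casp2, Parp1, Vdac1, Vdac2, Xiap, Diablo, Htra2, Pabpn1, Tnfrsf10b and Ngfr were added after their values were seen, and one plot labels every called gene. Positions are from RefSeq (GRCm38.p6), promoter windows from RefSeq, and coding stretches from GENCODE vM21, translated with Biopython 1.88. One gene of the caspase list and one promoter stretch are not reported here.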

Additional observations from a re-analysis of the deposited data

How the results depend on the processing

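Over 16 alternative fits, 143 of 160 member values kept their direction and their side of the threshold, 6 gained a call, 7 lost one and 4 turned sign. The sign turned only for Pmaip1, to 0.024 on log2(TPM + 1), 0.25 without WT replicate 2, 0.045 without KD replicate 3 and 0.13 without both libraries numbered 2, with -0.29 to 0.25 over the fits that left out 1 library. Beside the members, Bax turned to 0.034 on log2(TPM + 1), 0.017 without WT replicate 2 and 0.019 without both libraries numbered 2 (-0.080 to 0.017 without 1 library), and Bcl2l12 turned to -0.049 without KD replicate 1 (-0.049 to 0.35 without 1 library). No Bax or Pmaip1 value was called in any fit.

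Leaving out 1 library gave 1 to 3 members lower and 0 to 1 higher (a member was higher without WT replicate 3 or KD replicate 3), 779 to 1612 genes higher and 797 to 1583 lower, and 3 to 8 other pathway genes higher and 0 to 6 lower. Counts of members lower were fewest without WT replicate 2 or KD replicate 2, where Bbc3 was the one left. Without both libraries numbered 2, 1 member was lower, 135 genes were higher and 93 lower, and 1 other pathway gene was higher and 0 lower, with fewer samples in that fit. The replicate block, which treats same-numbered libraries as pairs, gave 2 members higher, 2539 genes higher and 2470 lower, and 14 other pathway genes higher and 11 lower.

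Upper quartile scaling called 5 other pathway genes lower, and limma on log2(TPM + 1) called 1072 genes lower. At an adjusted p under 0.01, 1 member was lower, 629 genes were higher and 634 lower, and 2 other pathway genes were higher and 0 lower. With at least a 1.5-fold change required, 1 member was lower, 294 genes were higher and 244 lower, and 0 other pathway genes were higher or lower. Why these counts moved was not tested, beyond the stricter limits and fewer samples themselves. A planned change of pseudocount for tables without counts was not run, since the table holds counts.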

Other observations

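Genes at the other entry to apoptosis, the death receptors and their adaptors, were measured as well. All 8 of the list passed the filter on low counts, and edgeR called 0 of them at an adjusted p under 0.05, with 2 lower and 0 higher at an unadjusted p below 0.05 and 0 called by DESeq2. Those 2 were Tnfrsf10b, which encodes the mouse receptor for TRAIL (log2 fold change -0.57, adjusted p = 0.0677 by edgeR), and Ngfr, which encodes the neurotrophin receptor p75 (log2 fold change -0.38, adjusted p = 0.121 by edgeR). The replicate block called both lower (adjusted p = 0.0447 and 0.0298).

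Partners of the family on mitochondria and the endoplasmic reticulum were abundant, at 1291 to 1400 TPM summed over 7 genes in the WT libraries and 1372 to 1421 TPM in the KD libraries. Of these 7 genes 1 rose and 1 fell, or 1 and 3 with the replicate block. The voltage-dependent anion channel gene Vdac3 was at 123, 123 and 120 CPM in WT and at 159, 170 and 172 CPM in KD (log2 fold change 0.45, SE 0.05, adjusted p = 0.000756 by edgeR), and it was called in all 16 alternative fits. On the log2 scale its relative Vdac1 differed by -0.16 (adjusted p = 0.0996 by edgeR, and 0.0385 with the replicate block, which called it lower) and Vdac2, which is known to bind Bak, by -0.04 (adjusted p = 0.635 by edgeR). Bcap31, which encodes a protein of the endoplasmic reticulum that is cut during apoptosis, was at 60.6, 65.2 and 56.6 CPM in WT and at 45.8, 44.1 and 52.3 CPM in KD. It fell by 0.36 on the log2 scale (SE 0.08, adjusted p = 0.0136 by edgeR), a call lost without WT replicate 2 (adjusted p = 0.0585) or KD replicate 2 (adjusted p = 0.0596).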
